A study of Mus musculus with 12 samples.

Results

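The TRiC chaperonin subunits described here are the 8 genes Tcp1, Cct2, Cct3, Cct4, Cct5, Cct6a, Cct7 and Cct8, which encode the 8 different proteins of the ring. They were taken by symbol from the authors' complete tables, in which 8 of 8 were listed for both genotypes, out of 13768 genes listed for either genotype. All 8 passed the filter on low values in every comparison, so none was kept through only its higher group. TRiC, also called CCT, is a cytosolic chaperonin built of stacked rings that enclose an unfolded protein and fold it in a cycle driven by ATP. It is known as the folding machine for actin and tubulin and for many proteins with WD40 repeats, and in muscle cells its actin and tubulin clients build the cytoskeleton. The subunits are not interchangeable: Tcp1, Cct2, Cct4 and Cct5 encode the side of the ring that binds ATP more tightly, and Cct3, Cct6a, Cct7 and Cct8 the side that binds it less tightly.

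The cells were C2C12, an established mouse myoblast line. For 2 genotypes, wild type and a knockout of the nucleolar DEAD-box RNA helicase gene Ddx27, the total RNA of the cell and the RNA of purified polysomes, the mRNAs occupied by several ribosomes, were sequenced. The labels name no drug, culture time or clone, and do not say that the 3 samples listed for each of the 4 groups were separate cultures, so the p-values measure only the spread between these samples. The 11 libraries analysed were 6 of the wild type, with 3 per fraction, and 5 of the knockout, of which 2 were of total and 3 of polysomal RNA. Knockout libraries are numbered as in the authors' table, since those numbers could not be tied to sample titles.

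Reads in listed genes ran from 13683674 to 27347878 per library, and each subunit had at least 2018 reads in every library. Ddx27 fell by 1.63 ± 0.24 on the log2 scale in knockout total RNA (SE, limma adjusted p = 0.00186) and by 2.08 ± 0.22 in knockout polysomal RNA (limma adjusted p = 0.000194), and stayed detectable at 31.3 to 52.6 normalised read counts in the 5 knockout libraries. Myod1, the factor that defines myoblasts, stood at 137 to 177 in wild-type total RNA and at 0.363 and 1.13 in knockout total RNA. The 5 myoblast markers together stood at 2918 to 4014 in total and 886 to 1041 in polysomal libraries of the wild type, and at 1032 to 1205 and 461 to 539 in those of the knockout. Limma called 4 of the 5 lower in the knockout in each fraction, against 5.79% of all genes in total and 3.50% in polysomal RNA. Myf5 went the other way, higher in knockout total RNA by 0.98 ± 0.26 on the log2 scale (limma adjusted p = 0.0367). In polysomal RNA Myf5 was not called, at 0.49 ± 0.23. The 5 myotube markers together stood at 269 to 719, 15.6 to 27.5, 122 to 140.2 and 6.93 to 10.4 in the same 4 groups, and no marker of either list was at 0 throughout a group. The share of reads in 4 gene models that collect ribosomal RNA sequence was 5.91%, 14.5% and 0.674% in wild-type polysomal replicates 1 to 3, 23.1%, 32.7% and 0.385% in knockout polysomal replicates 1 to 3, and at most 0.135% in total RNA. Neat1 and Malat1, 2 nuclear-retained RNAs planned as a check of the fractions, differed. Neat1 was lower in polysomal than in total RNA, at −1.31 ± 0.39 in the wild type (limma adjusted p = 0.0490) and −1.47 ± 0.53 in the knockout (limma adjusted p = 0.150). Malat1 stood at 0.07 ± 0.38 and −0.04 ± 0.83. In knockout polysomal replicates 1 to 3 Malat1 had 470, 917 and 77.9, against 340 and 326 in total RNA. Carry-over of nuclear RNA was not tested. The part of these differences in the subunits' values was not tested beyond the fits given below. In such bulk libraries fewer cells of a type and less RNA per cell cannot be told apart.

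The 8 genes lie on 8 chromosomes. By the RefSeq annotation of GRCm38.p6, Tcp1 spans chr17:12916329-12925067, Cct2 chr10:117050997-117063852, Cct3 chr3:88297135-88321766 and Cct4 chr11:22990593-23003336. Cct5 spans chr15:31590800-31601846, Cct6a chr5:129787356-129846443, Cct7 chr6:85451505-85468477 and Cct8 chr16:87483325-87495869. The gene spans of Tcp1, Cct6a, Cct7 and Cct8 overlap a neighbour: Tcp1 shares 1459 bases with Mrpl18 and 1238 with Acat3, Cct6a shares 88 with Psph, Cct7 shares 483 with Pradc1 and Cct8 shares 191 with Usp16. Whether the counting used the strand is not given in the sources used here, so reads in those stretches may have been assigned to either gene. The deposited values of these neighbours were 47.4 to 262 for Mrpl18, 58.3 to 224 for Psph, 6.56 to 35.8 for Pradc1 and 29.7 to 66.6 for Usp16, and Acat3 was not analysed here. The pseudogenes Tcp1-ps1 and Cct3-ps1, which can share reads with their parents, held 0.139 to 0.395% and 1.61 to 3.93% of the parent's reads.

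The first 30 bases from the annotated transcription start are printed because the start of an mRNA carries the best known sequence for translation control of the protein synthesis machinery, the terminal oligopyrimidine motif, a C followed by a run of pyrimidines. RefSeq's promoter table for GRCm38.p6 held 7 of the 8 genes, all but Cct4. Capitals mark the pyrimidine run at the first base, where there is one.
Tcp1: Cggcgttttcagtttttcgccccgcccagc
Cct2: acgcaggaggcggaaacccgtgcgtccggc
Cct3: Tgtcattcctgaggaggcagcgttttcttc
Cct5: CTgttgaaaagtaagtcgcggggtctgcac
Cct6a: gggcgggccgggtgcgtaagacttttcgag
Cct7: gcggggttgcgcgggatccacggctctcct
Cct8: TTCCCagcaggcagtgcgcggcgccccttg
None of the 7 annotated starts had a C followed by at least 4 more pyrimidines, a form found at 671 of 27025 annotated starts (2.48%). Cct8 had a run of 5 pyrimidines that began with T, Cct5 had a run of 2, and Tcp1 and Cct3 had 1 pyrimidine each. Cct2, Cct6a and Cct7 began with a purine. Cct2 and Cct5 have 2 annotated starts, of which 1 is shown.

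The 250 bases before the start are shown for Cct7, the 1 subunit that passed a test between the genotypes, and for Cct2, the subunit with the highest level per length. Cct7 is read on the plus strand at chr6:85451255-85451504 and Cct2 on the minus strand at chr10:117063853-117064102. Capitals mark GC boxes (GGGCGG) and CCAAT boxes (CCAAT) on either strand.
Cct7: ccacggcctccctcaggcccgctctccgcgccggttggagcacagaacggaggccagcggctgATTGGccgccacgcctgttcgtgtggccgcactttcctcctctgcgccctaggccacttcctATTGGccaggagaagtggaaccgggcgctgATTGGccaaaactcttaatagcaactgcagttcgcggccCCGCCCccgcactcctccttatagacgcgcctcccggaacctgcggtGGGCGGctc
Cct2: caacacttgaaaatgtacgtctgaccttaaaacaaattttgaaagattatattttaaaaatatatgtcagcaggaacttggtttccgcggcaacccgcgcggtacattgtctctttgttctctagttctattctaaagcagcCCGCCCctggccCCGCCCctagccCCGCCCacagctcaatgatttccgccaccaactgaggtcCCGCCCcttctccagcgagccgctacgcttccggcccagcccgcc
Cct7 held 3 CCAAT boxes and 2 GC boxes in this stretch, and Cct2 held 4 GC boxes and no CCAAT box. Over the window of 250 bases before to 50 after the start, GGGCGG on either strand was present in 7 of 7 subunits against 35.92% of 27025 promoters, and CCAAT in 4 of 7 against 38.02%. The Ets motif CCGGAAG was present in 3 of 7, in Tcp1, Cct2 and Cct8, against 9.14%. The heat-shock element GAANNTTC and the TATA box TATAAA were found in 0 of 7 windows, against 7.96% and 14.16% of all promoters. Both strands were searched and each motif was counted on its own, also where motifs overlapped. A match is a stretch of letters, not a measured binding site.

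Levels of different subunits were compared per kilobase of the gene length in the authors' tables, within each genotype's own scale. In wild-type total RNA Cct2, the beta subunit, had the highest level at 484 ± 11.5 normalised read counts per kilobase (SD, n = 3), followed by Cct5, the epsilon subunit, at 304 ± 6.38. Cct6a (zeta) at 246 ± 19.0 and Cct7 (eta) at 233 ± 18.8 overlapped. Tcp1 (alpha) followed at 137 ± 5.82, and Cct3 (gamma) at 111 ± 8.42, Cct8 (theta) at 108 ± 5.0 and Cct4 (delta) at 107 ± 4.4 overlapped one another. The order depends on the deposited lengths, which ran from 1584 bases for Cct6a to 4722 bases for Tcp1.

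Cct2 and Cct5 also ranked first and second in the other groups, at 542 and 385 per kilobase in knockout total RNA, 378 and 318 in wild-type polysomal RNA and 341 and 219 in knockout polysomal RNA. In wild-type polysomal RNA every neighbouring pair in the order overlapped. In both knockout groups Cct2 did not overlap Cct5, nor Cct5 the next subunit. Cct7 came next in knockout total RNA at 229 and overlapped Cct6a at 197. In knockout polysomal RNA Cct6a stood at 162, Cct7 at 121 and Tcp1 at 117, and each overlapped the next. Cct4 followed at 99.1, then Cct8 at 80.5 and Cct3 at 65.0, and the last pair overlapped.

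**Figure D1:**
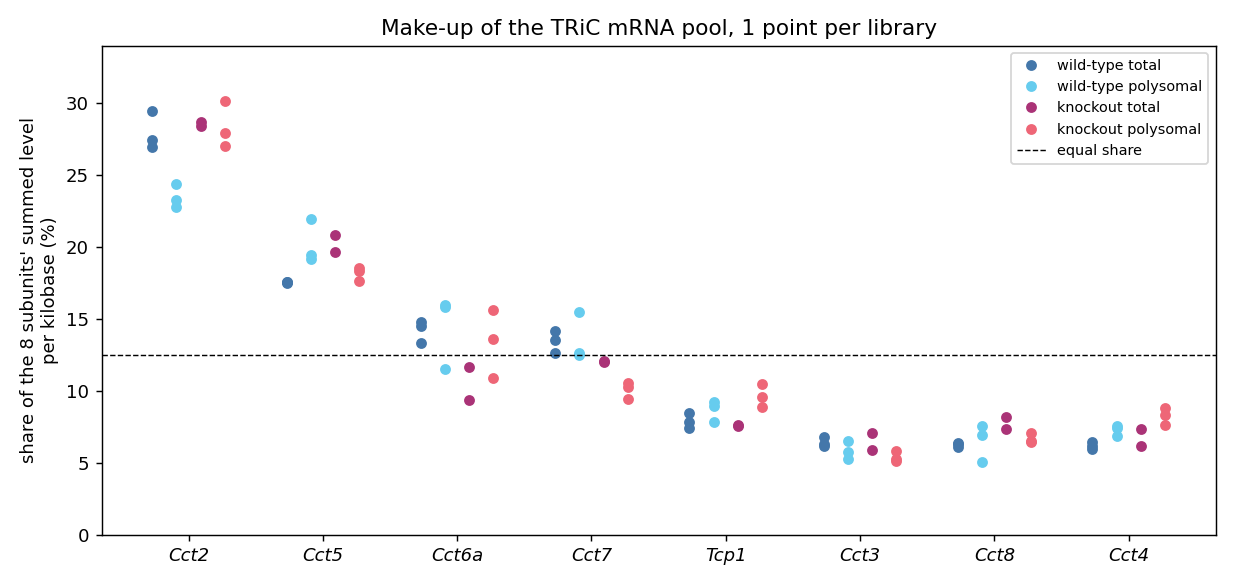
Share of each subunit in the summed level per kilobase of the 8 subunits (y axis, percent; x axis, subunits in the order of wild-type total RNA), 1 point per library coloured by group, with a dashed line at the equal share of 12.5%. Cct2 held 22.8 to 30.2% in every library, and Cct7 held 9.45 to 10.6% in the knockout polysomal libraries against 12.02% or more in all others.

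The make-up of the pool is independent of how the tables were scaled, and the plot of shares shows it by library. Cct2 made up 28.0 ± 1.34% of the summed level per kilobase in wild-type total RNA (SD, n = 3) and 23.5 ± 0.82% in wild-type polysomal RNA (n = 3), and these libraries did not overlap. In the knockout the Cct2 share was 28.6% (mean of 2) in total and 28.4 ± 1.6% (n = 3) in polysomal RNA. Cct7 made up 13.4 ± 0.77% in wild-type total, 13.5 ± 1.69% in wild-type polysomal, 12.05% (mean of 2) in knockout total and 10.1 ± 0.58% in knockout polysomal RNA. Its 3 knockout polysomal libraries had the lowest shares of the 11. Cct4 went the other way, with its 3 highest shares of the 11 in knockout polysomal RNA, at 7.62 to 8.80%, against at most 7.56% elsewhere. Tcp1 made up 7.92 ± 0.53% in wild-type total and 8.68 ± 0.73% in wild-type polysomal RNA. In knockout polysomal RNA Tcp1 stood at 9.65 ± 0.81%, above both knockout total libraries at 7.58 and 7.65%. The polysomal libraries of the 2 genotypes overlapped for Tcp1. These shares are a description and were not tested.

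The first comparison asked which mRNAs were over- or under-represented in polysomes of wild-type myoblasts. No subunit passed the test between wild-type polysomal and total RNA, with 0 of 8 called higher or lower, where 8.89% of the 12380 genes tested were called higher and 13.8% lower. None had an unadjusted p under 0.05 (0 of 8), and edgeR and DESeq2 on recovered reads also called 0 of 8. The 8 fold changes had a median of −0.15 on the log2 scale, against −0.02 for all genes. On the tight-binding side of the ring, Tcp1 had deposited values of 620.4, 644 and 675 in total RNA replicates 1 to 3 and 694, 447 and 801 in the polysomal ones. Cct2 had 927, 930.3 and 967 in total and 889.5, 456 and 859 in polysomal RNA. Only for Cct2 among the 8 were all 3 polysomal values below all 3 total ones, which held for 27.7% of all genes. Cct4 had 459.7, 491 and 456 in total and 563, 332 and 627 in polysomal RNA. Cct5 had 863, 858 and 829.5 in total and 1005, 631 and 1029.5 in polysomal RNA. For Tcp1, Cct4 and Cct5 polysomal replicates 1 and 3 lay above all total libraries and polysomal replicate 2 below them.

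On the other side of the ring, Cct3 had 549.9, 504 and 473 in total and 494, 306 and 453 in polysomal RNA. Cct6a had 414, 401 and 357 in total and 469, 187 and 479 in polysomal RNA. Cct7 had 610.3, 575 and 519 in total and 572, 388 and 583 in polysomal RNA. Polysomal replicate 2 was the lowest of the 6 wild-type libraries for these 3 subunits. Cct8 had 351, 343 and 321 in total and 442, 163 and 412 in polysomal RNA, with the same low replicate. For Cct6a and Cct8 polysomal replicates 1 and 3 lay above all total libraries, as they did for Tcp1, Cct4 and Cct5. The fold changes were −0.42 ± 0.28 for Cct2 (SE, limma adjusted p = 0.287), −0.31 ± 0.22 for Cct3 (adjusted p = 0.317), and between −0.16 and 0.06 for the other 6, with limma adjusted p of 0.580 to 0.934. Their 95% intervals reached from −1.06 to 0.74 over the 8 subunits.

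The wild-type values turned on polysomal replicate 2. It was the lowest of the 3 wild-type polysomal libraries for 8 of 8 subunits, where 48.7% of all genes had it lowest. Without it the median of the 8 fold changes turned from −0.15 to 0.23, and Cct4 at 0.34 (limma adjusted p = 0.0327, range over alternatives 0.0327 to 0.939) and Cct8 at 0.33 (limma adjusted p = 0.0293, range 0.0293 to 0.995) were then called higher, where 22.6% of all genes were. That library had 14.5% rRNA-like reads and the strongest trend on gene length, −0.53 on the log2 scale per doubling of length, and the part of either in the subunits' values was not tested.

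**Figure D2:**
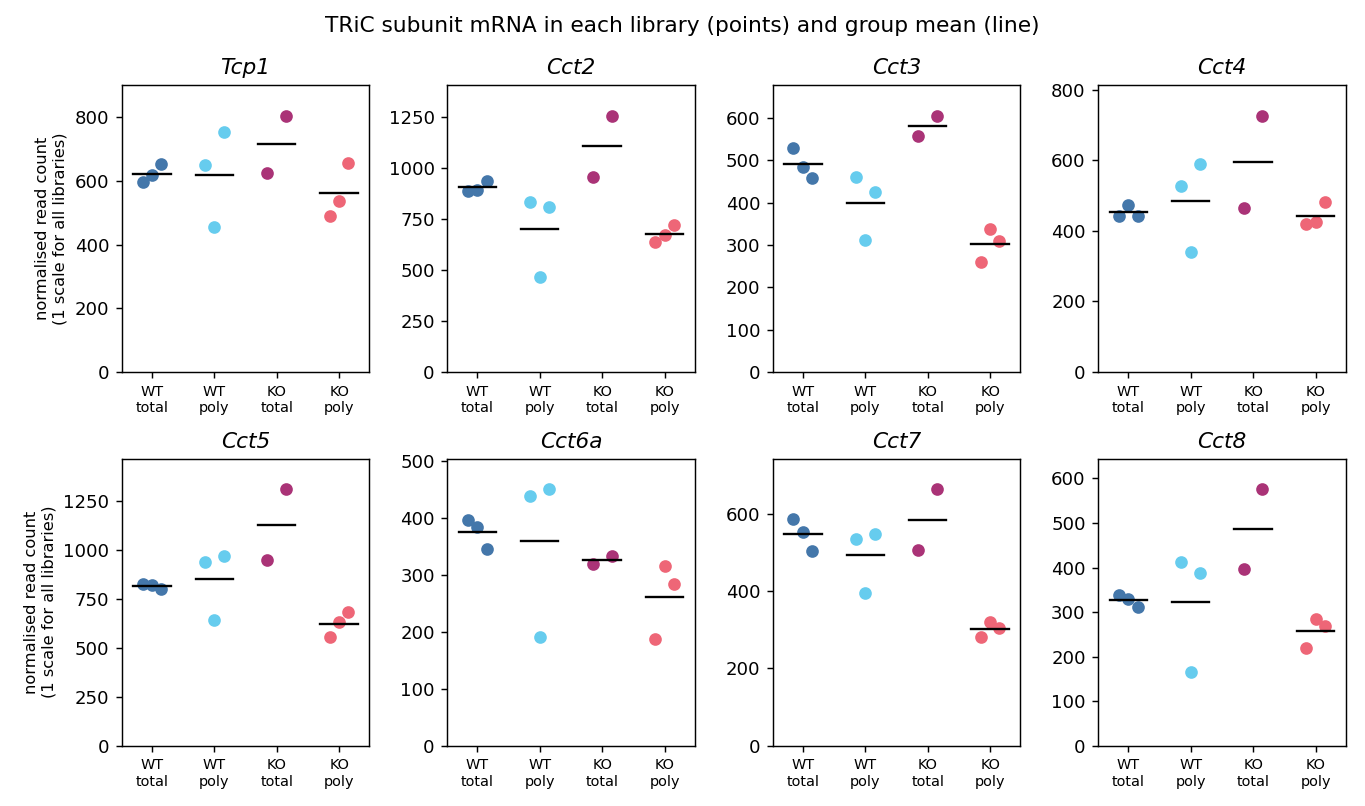
Normalised read counts of each subunit (y axis, on 1 scale for all 11 libraries, starting at 0) in the 4 groups (x axis; poly, polysomal RNA), 1 point per library with the group mean as a line. The lowest light blue point in every panel is wild-type polysomal replicate 2, and for Cct7 the 3 knockout polysomal libraries at 280.2 to 320.4 lie below the 8 others, which start at 396.

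In knockout cells the mean deposited level of all 8 subunits was lower in polysomes than in total RNA, and none passed the test. The count was 0 of 8, where 0.911% of the 12070 genes tested were called higher and 1.85% lower. The 8 fold changes had a median of −0.73 on the log2 scale against 0.04 for all genes, and 8 of 8 were negative, as were 47.3% of all genes. With quantile normalisation 5 of 8 were negative, and Tcp1, Cct4 and Cct6a turned positive. For Cct2, Cct3, Cct5, Cct7 and Cct8, 5 of 8, every polysomal library lay below both total libraries, which held for 18.3% of all genes. The same 5 had an unadjusted p under 0.05, as did 22.7% of all genes in either direction.

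Cct3 had deposited values of 532 and 577 in the 2 total libraries and 254, 328 and 309.5 in polysomal replicates 1 to 3. Cct7 had 483 and 632 in total and 273, 310.3 and 304 in polysomal RNA. Cct8 had 378 and 548 in total and 213, 275 and 269 in polysomal RNA. For these 3 the polysomal values stood clear of the total ones, by the widest margin for Cct3. Their fold changes were −0.91 ± 0.24 for Cct3 (SE, limma adjusted p = 0.0834), −0.90 ± 0.24 for Cct7 (adjusted p = 0.0854) and −0.86 ± 0.26 for Cct8 (adjusted p = 0.114). The 95% interval for Cct3 ran from −1.45 to −0.36.

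Cct5 had 906 and 1249.5 in total and 543, 612 and 683 in polysomal RNA, a fold change of −0.80 ± 0.27 (limma adjusted p = 0.138). Cct2 had 913 and 1198 in total and 622, 652 and 717 in polysomal RNA, at −0.66 ± 0.26 (limma adjusted p = 0.186). In both genes the groups did not overlap, and total replicate 2 was the highest library. The remaining 3 subunits had overlapping groups. Tcp1 had 595 and 767 in total and 479, 519 and 653 in polysomal RNA, at −0.31 ± 0.27 (limma adjusted p = 0.532). Cct4 had 444 and 692 in total and 408, 413 and 480.3 in polysomal RNA, at −0.36 ± 0.27 (limma adjusted p = 0.475). Cct6a had 305 and 318 in total and 182, 306 and 284 in polysomal RNA, at −0.31 ± 0.28 (limma adjusted p = 0.546). The total libraries of Cct6a lay close together and polysomal replicate 1 lay well below its other libraries.

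The calls in the knockout changed with the test. On recovered whole reads DESeq2 called 5 of 8 lower, where it called 6.22% of all genes lower. The 5 were Cct3 at −0.94 (DESeq2 adjusted p = 0.00387), Cct7 at −0.96 (0.00402), Cct8 at −0.92 (0.0195), Cct5 at −0.86 (0.0204) and Cct2 at −0.71 (0.0471). The quasi-likelihood test of edgeR called 0 of 8, where it called 1.84% of all genes lower. With the trend on gene length removed, limma called Cct3, Cct7 and Cct8 lower, where it called 6.61% of all genes lower. Over the alternatives the adjusted p ranged from 0.00387 to 0.425 for Cct3, from 0.00402 to 0.480 for Cct7 and from 0.0195 to 0.573 for Cct8. In the authors' deposited table, Cct3 at −0.90 (FDR 0.0460) and Cct7 at −0.92 (FDR 0.0431) were the 2 of 8 subunits lower at an FDR under 0.05, where 4.84% of the genes of the authors' deposited table were lower. Neither Cct3 nor Cct7 reached the log2 limit of 1 that the authors' lists also used. In the authors' deposited table for the wild type 0 of 8 subunits passed that FDR, where 14.29% of its genes were lower and 13.01% higher.

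**Figure D3:**
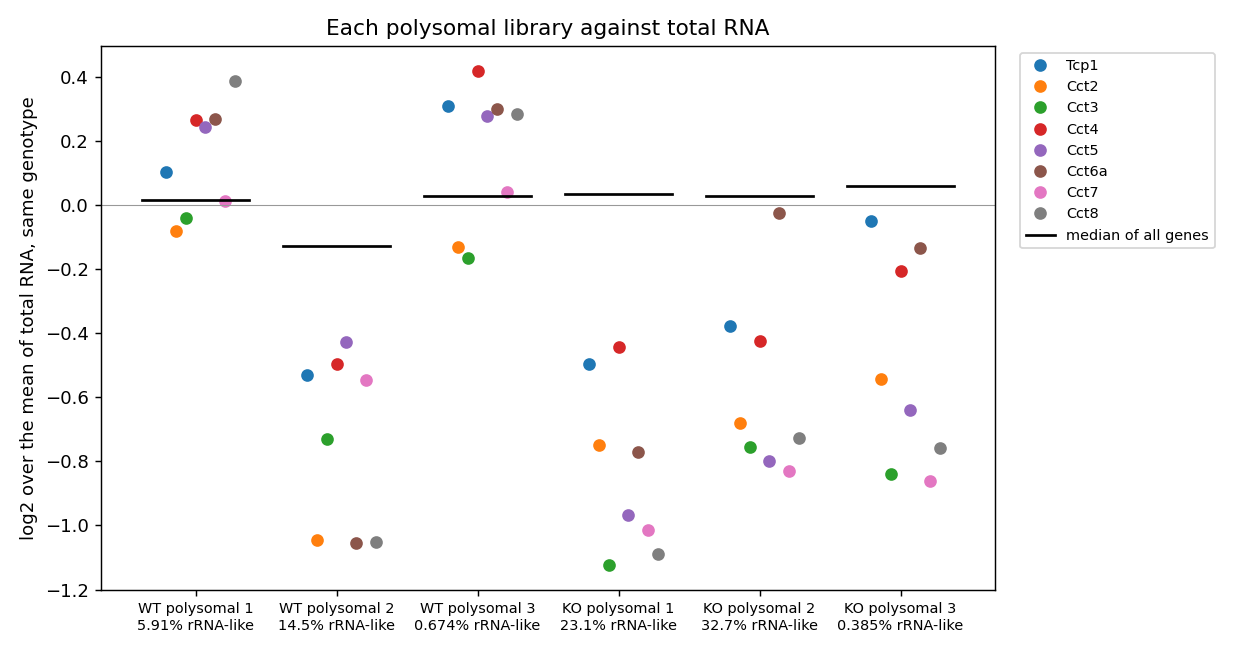
Log2 of each polysomal library over the mean of total RNA of the same genotype (y axis) for the 8 subunits (coloured points) in the 6 polysomal libraries (x axis, with the share of rRNA-like reads); black bars are the median of all genes tested. All 8 subunits lie below 0 in each knockout polysomal library and in wild-type polysomal replicate 2, while 6 of 8 lie above 0 in wild-type polysomal replicates 1 and 3.

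Taken library by library, the median of the 8 subunits against the mean of total RNA was 0.17, −0.64 and 0.28 on the log2 scale in wild-type polysomal replicates 1 to 3, and −0.87, −0.70 and −0.59 in knockout polysomal replicates 1 to 3. The median of all genes was between −0.13 and 0.06 in these libraries. All 8 subunits were below 0 in each of the 3 knockout libraries, including replicate 3, which had 0.385% rRNA-like reads. In wild-type replicates 1 and 3 the 2 subunits below 0 were Cct2 and Cct3. Some order among libraries was shared by all members: knockout polysomal replicate 1 was the lowest of its group for 8 of 8 (44.0% of all genes), and knockout total replicate 2 was above replicate 1 for 8 of 8 (47.1% of all genes). The summed level of the 8 subunits per kilobase was 1648 and 2144 in knockout total replicates 1 and 2 and 1059 to 1317 in the knockout polysomal libraries.

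Whether the polysomal shift differed between the genotypes was tested as the difference of the fold changes, and no subunit passed. The count was 0 of 8, where 0.224% of 12474 genes were called higher and 0.0401% lower. At an unadjusted p under 0.05 there were 2 of 8, Cct5 and Cct7, against 20.9% of all genes in either direction. Both edgeR and DESeq2 called 0 of 8, where edgeR called 0.176% of all genes higher and 0.0722% lower, and DESeq2 3.90% and 3.66%. All 8 differences, knockout minus wild type, were negative as fitted, and 6 of 8 were with quantile normalisation or the length trend removed and 7 of 8 without wild-type polysomal replicate 1 or 3 or knockout polysomal replicate 1. Their median was −0.51 on the log2 scale against 0.09 for all genes, of which 45.1% were negative. The most negative were Cct5 at −0.83 ± 0.34 (SE, limma adjusted p = 0.202), Cct7 at −0.74 ± 0.30 (adjusted p = 0.205) and Cct8 at −0.73 ± 0.49 (adjusted p = 0.392). The 95% interval was −1.57 to −0.10 for Cct5 and −1.40 to −0.08 for Cct7. Cct3 stood at −0.59, Cct4 at −0.42, Tcp1 at −0.27, Cct2 at −0.24 and Cct6a at −0.15, with limma adjusted p of 0.286 to 0.874. Without wild-type polysomal replicate 2, Cct8 was called lower at −1.19 (limma adjusted p = 0.0430), where 1.11% of all genes were, and its adjusted p ranged up to 0.834 over the alternatives.

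**Figure D4:**
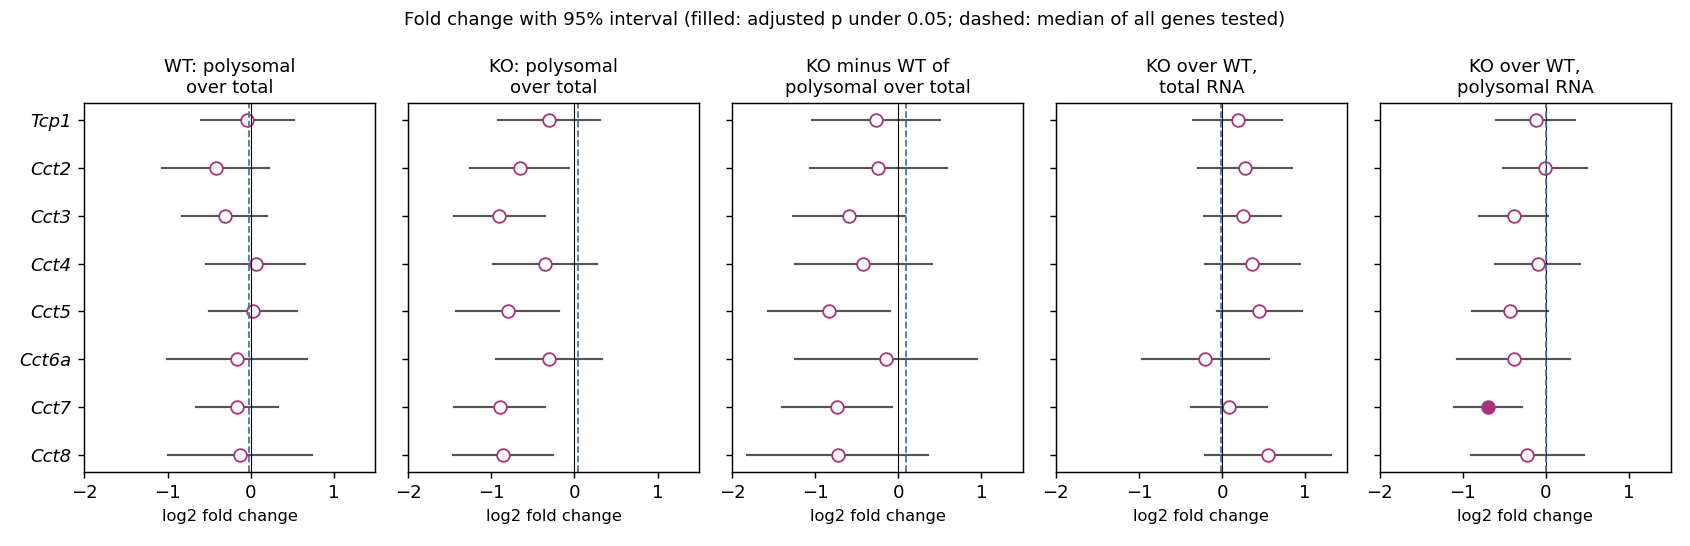
Log2 fold change of each subunit (points; bars, 95% interval) in the 5 comparisons (panels), with a solid line at 0 and a dashed line at the median of all genes tested. The only filled point, adjusted p under 0.05, is Cct7 in knockout over wild-type polysomal RNA at −0.69, and all 8 points lie left of 0 in the knockout, difference and polysomal panels, which under quantile normalisation held for 5, 6 and 5 of 8.

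For the comparison of genotypes all libraries were put on 1 scale. In total RNA 0 of 8 subunits were called, where 4.71% of 12460 genes were called higher and 5.79% lower. At an unadjusted limma p under 0.05 there were also 0 of 8, against 29.4% of all genes. Both edgeR and DESeq2 called 0 of 8, where edgeR called 5.39% of all genes higher and 4.94% lower, and DESeq2 10.1% and 9.70%. The median of the 8 was 0.26 on the log2 scale, against −0.01 for all genes. Cct8 stood at 337, 329.7 and 311 in the wild type and at 397 and 575 in the knockout, a fold change of 0.55 ± 0.35 (SE, limma adjusted p = 0.307). Cct5 stood at 828, 824 and 804 in the wild type and at 950.4 and 1310.4 in the knockout, at 0.45 ± 0.23 (limma adjusted p = 0.225). In both genes the 2 knockout libraries lay above the wild type. Cct2 and Cct3 also did not overlap on the higher side, which made 4 of 8 against 31.2% of all genes. Cct6a alone did not overlap on the lower side, against 33.2% of all genes, at 398, 385 and 346 in the wild type and 320.0 and 334 in the knockout, a fold change of −0.20 ± 0.35 (limma adjusted p = 0.725). Tcp1 at 0.19, Cct4 at 0.36 and Cct7 at 0.09 had overlapping groups.

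In polysomal RNA Cct7 was lower in the knockout. It stood at 535, 396 and 548 in the wild-type replicates and at 280.2, 320.4 and 305 in the knockout ones, so the groups did not overlap. Its mean was 302 against 493, a fold change of −0.69 ± 0.19 on the log2 scale (SE, 95% interval −1.10 to −0.28, limma adjusted p = 0.0430). It was the 1 of 8 subunits called lower, where 3.50% of all genes were called lower and 4.82% higher, and 1 of 8 did not overlap on the lower side, against 11.0% of all genes. The adjusted p lay close to the threshold and ranged from 0.00279 to 0.264 over the alternatives. The call was lost with edgeR (adjusted p = 0.0542), TMM scaling (0.0518) and quantile normalisation (0.264). It was also lost without wild-type polysomal replicate 1 (limma adjusted p = 0.105) or 3 (0.127), without knockout polysomal replicate 1 (0.0989), 2 (0.0852) or 3 (0.132), and without wild-type total replicate 1 (0.0797), 2 (0.0857) or 3 (0.0712). The fold change stayed between −0.85 and −0.61 when single libraries were left out.

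The other 7 subunits were not called in polysomal RNA. Cct5 stood at 939, 643 and 968 in the wild type and 557, 632 and 685 in the knockout, at −0.43 ± 0.21 (SE, limma adjusted p = 0.249). Cct3 stood at 462, 312 and 426 against 260.4, 339 and 310.4, at −0.39 ± 0.19 (limma adjusted p = 0.251). In both genes wild-type replicate 2 fell among the knockout libraries and the other two wild-type libraries lay above them. Cct6a stood at −0.39, Cct8 at −0.22, Tcp1 at −0.12, Cct4 at −0.10 and Cct2 at −0.01, with limma adjusted p of 0.503 to 0.994. The median of the 8 was −0.30, against 0.00 for all genes. Without wild-type polysomal replicate 2 the count rose from 1 to 5 of 8, where 6.03% of all genes were then lower. The 5 were Cct3 at −0.56 (limma adjusted p = 0.0459), Cct5 at −0.62 (0.0448), Cct6a at −0.79 (0.0276), Cct7 at −0.85 (0.00801) and Cct8 at −0.64 (0.0451), and over all alternatives the adjusted p reached 0.684, 0.647, 0.788, 0.264 and 0.987.

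The partners of the chaperonin were described from lists chosen with earlier results of these data known. Prefoldin, which hands unfolded actin and tubulin to TRiC, had 2 of 5 tested genes higher and 0 lower by limma in wild-type polysomal over total RNA, where 8.89% of all genes were higher and 13.8% lower, with a list median of 0.69 on the log2 scale. Both edgeR and DESeq2 called 3 of 5 higher, the same 2 genes and Pfdn2. Over all genes edgeR called 10.2% higher and DESeq2 17.4%. Pfdn1 rose by 1.18 ± 0.29 (SE, limma adjusted p = 0.0265), from a mean of 60.6 to 147, and Pfdn4 by 0.92 ± 0.27 (adjusted p = 0.0466), from 41.7 to 81.5. In the knockout 0 of 5 prefoldin genes were called by limma, edgeR or DESeq2, with a median of −0.22. None had an unadjusted limma p under 0.05, against 22.7% of all genes. The difference between genotypes had a list median of −1.07 with 0 of 5 called by these tools, Pfdn2 at −1.19 ± 0.42 having the most negative value (limma adjusted p = 0.161). The phosducin-like cofactors, which modulate TRiC, had 0 of 3 called by any of these tools in either genotype, with medians of 0.20 in the wild type and −0.27 in the knockout.

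Other genes with a chaperonin fold, together with the co-chaperonin Hspe1, had 2 of 5 higher and 0 lower by limma and edgeR in wild-type polysomes. Over all genes limma called 8.89% higher and 13.8% lower. DESeq2 called 1 lower as well, Bbs10, where it called 17.9% of all genes lower. Limma had Bbs10 at −0.57 ± 0.18 (adjusted p = 0.0589). Hspe1, the co-chaperonin of the mitochondrial Hsp60 ring, rose by 1.71 ± 0.35 (SE, limma adjusted p = 0.0150), from 39.9 to 137, and Mkks, a chaperonin-like protein of the basal body, by 1.01 ± 0.21 (adjusted p = 0.0171), from 27.5 to 57.2. Neither was called in the knockout, where limma called 0 of 5. At an unadjusted limma p under 0.05 there was 1 of 5, against 22.7% of all genes. That gene was Hspd1, the Hsp60 ring itself, at −0.94 ± 0.23 (limma adjusted p = 0.0734), which DESeq2 called lower. The difference between genotypes for Hspe1 was −2.23 ± 0.57 (limma adjusted p = 0.0962), called lower by DESeq2 and not by limma or edgeR. Hspe1 was higher in knockout than in wild-type total RNA by 1.61 ± 0.44 (limma adjusted p = 0.0400). The tubulin folding cofactors, which assemble the tubulin dimer after TRiC has released the folded monomers, had 1 of 5 lower by limma in the wild type, against 13.8% of all genes, Tbcd at −0.92 ± 0.17 (limma adjusted p = 0.0106). Besides Tbcd, edgeR and DESeq2 called Tbca higher, where they called 10.2% and 17.4% of all genes higher. Limma did not call Tbca (adjusted p = 0.0608). In the knockout limma and edgeR called 0 of 5, with a list median of −0.70. At an unadjusted limma p under 0.05 there were 2 of 5, against 22.7% of all genes. DESeq2 called Tbcd lower, where it called 6.22% of all genes lower.

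**Figure D5:**
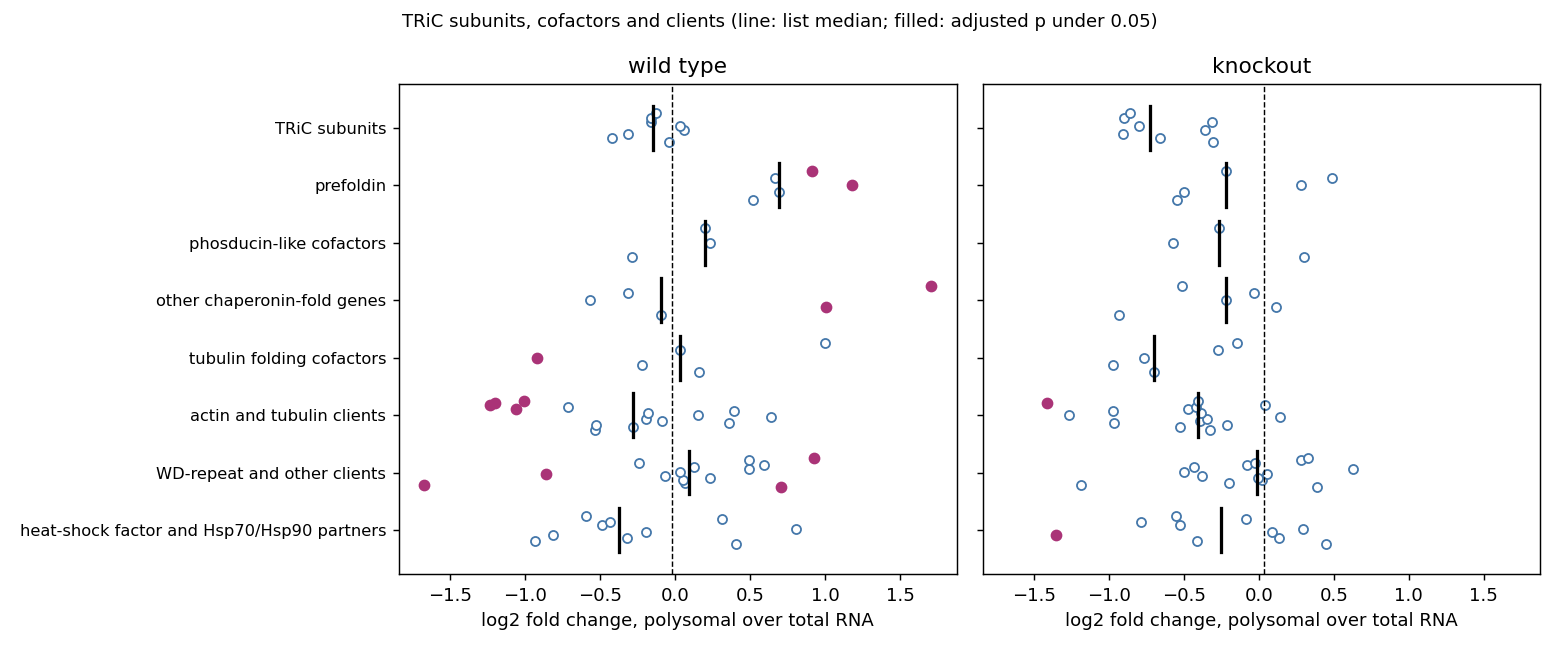
Polysomal over total RNA as a log2 fold change (x axis, the same range in both panels) for each gene of 8 lists (rows) in wild type and knockout; vertical bars are list medians, filled points have an adjusted p under 0.05 and the dashed line is the median of all genes tested. The TRiC subunits centre at −0.15 in the wild type and −0.73 in the knockout, and the prefoldin genes at 0.69 and −0.22. The row of other chaperonin-fold genes also holds the co-chaperonin Hspe1.

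Among the actin and tubulin clients 4 of 15 were lower and 0 higher by limma and edgeR in wild-type polysomes, against 13.8% and 8.89% of all genes by limma. DESeq2 called 5 lower, with Tubb2a in addition, where it called 17.9% of all genes lower. The 4 were Tubb3 at −1.24 ± 0.19 (SE, limma adjusted p = 0.00630), Tubb2b at −1.06 ± 0.19 (adjusted p = 0.00944), Tuba1a at −1.01 ± 0.19 (adjusted p = 0.0128) and Actg1, listed at only 1.58 in polysomal and 4.94 in total RNA, at −1.20 ± 0.23 (adjusted p = 0.0117). Actins and tubulins have near-identical copies that can share reads, so the levels of single members are uncertain. The abundant clients Actb, at −0.19 ± 0.23 (limma adjusted p = 0.543), and Tubb5, at −0.28 ± 0.26 (adjusted p = 0.435), were not called. In the knockout 1 of 15 was lower, Actg1 at −1.41 ± 0.26 (limma adjusted p = 0.0295), again at a low level of 0.904 against 4.05, where 1.85% of all genes were lower. In the knockout DESeq2 called Acta2 lower as well, where it called 6.22% of all genes lower. Limma had Acta2 at −1.26 ± 0.34 (adjusted p = 0.0833). Between the genotypes the neuronal tubulin Tubb3 was lower in knockout total RNA at −2.46 ± 0.21 on the log2 scale (limma adjusted p = 3.19e-05), and Tubb6 stood lower at −0.92 ± 0.21 (adjusted p = 0.0182). In knockout polysomal RNA Tubb3 at −1.22 ± 0.19 (limma adjusted p = 0.00240) and Tubb6 at −0.75 ± 0.19 (adjusted p = 0.0298) were again lower than in the wild type.

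WD-repeat and other clients had 2 of 14 higher and 2 of 14 lower by limma and edgeR in wild-type polysomes, close to the limma shares of all genes, 8.89% and 13.8%. DESeq2 called 5 higher, with Gnb1, Strap and Vhl in addition, and 2 lower, where it called 17.4% of all genes higher and 17.9% lower. Wrap53, which carries the telomerase RNA, stood at 0.93 ± 0.26 (SE, limma adjusted p = 0.0400) and the cyclin Ccne1 at 0.70 ± 0.18 (adjusted p = 0.0299). The transcription factor Stat3 stood at −1.67 ± 0.24 (limma adjusted p = 0.00502) and Rptor, the scaffold of the mTORC1 kinase, at −0.86 ± 0.23 (adjusted p = 0.0340). In the knockout limma and edgeR called 0 of 14, and 2 of 14 had an unadjusted limma p under 0.05, against 22.7% of all genes. DESeq2 called Stat3 lower, where it called 6.22% of all genes lower. Ccne1 was lower in knockout than in wild-type polysomal RNA at −0.74 ± 0.17 (limma adjusted p = 0.0208), and Bbs10, a chaperonin-like gene at low level, was higher at 0.72 ± 0.19 (adjusted p = 0.0377). Heat-shock factors and the Hsp70 and Hsp90 partners had 0 of 10 called in the wild type by limma or edgeR. At an unadjusted limma p under 0.05 there were 4 of 10, against 39.2% of all genes. DESeq2 called Hsf1 higher and Hsp90ab1 lower, 1 of 10 in each direction, against 17.4% and 17.9% of all genes. In the knockout 1 of 10 was lower, the Hsp110 family member Hspa4 at −1.36 ± 0.28 (limma adjusted p = 0.0425), with means of 213 against 535. Over all genes limma called 1.85% lower in the knockout. In this list DESeq2 called Stip1 lower besides Hspa4, where it called 6.22% of all genes lower. In the difference between genotypes limma and edgeR called 0 genes of these 7 partner and client lists. DESeq2 called Hspe1 lower and 4 of the 15 actin and tubulin clients in both directions. Tuba1b, Acta2 and Tuba1c were lower and Tubb3 was higher. Over all genes DESeq2 called 3.90% higher and 3.66% lower in this comparison.

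The 8 subunits followed one another across libraries. The Pearson correlation of each subunit with the mean of the other 7, on log2 values over the 11 libraries on 1 scale, ran from 0.756 for Cct6a to 0.946 for Cct8. Among 9378 genes with a mean of at least 10, the 5 other genes with the closest pattern were Adpgk (r = 0.974), Lap3 (0.963), Hdac2 (0.961), Nars (0.960) and Arf2 (0.949), against a median of 0.04 for all genes. These encode a glucose kinase that uses ADP, a leucine aminopeptidase, a histone deacetylase, the cytosolic asparaginyl-tRNA synthetase and a small GTPase of the Golgi. The libraries share depth, fraction and genotype across all genes, and the correlations are a description. Nars, as an example, had deposited values of 620.3, 619 and 615 in wild-type total, 608, 256 and 563 in wild-type polysomal, 569 and 713 in knockout total and 248, 391 and 345 in knockout polysomal RNA. It shared with the subunits the low wild-type polysomal replicate 2 and the low knockout polysomal libraries, and at −0.98 ± 0.28 in the knockout it was not called (SE, limma adjusted p = 0.0963).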

How the data were processed

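RNA sequencing values were used for C2C12 wild-type and Ddx27-knockout libraries of total and polysomal RNA. Each genotype has its own table deposited by the authors, which gives a signal for every gene in every library. That signal is a read count rescaled by a single factor for the library, since division by the smallest step returned whole reads for 100% of values (tolerance 0.001 reads). Column sums of 847338 to 1215073 show that this is not plain CPM, and each genotype was scaled by the authors on its own. The authors' deposited tables also give a log2 fold change and an FDR, which is an adjusted p-value. The mouse build mm10 and the tools STAR, HTSeq and edgeR are named, without versions or settings, per the submitters' processing notes.

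The planned test assumed CPM and was kept. The main test was limma 3.58.1 (R 4.3.3; trend=TRUE) on log2(value + 1) for genes with a value of 1 in 3 or more fitted libraries, adjusted by Benjamini and Hochberg over all genes, at a threshold of 0.05. The added 1 understates changes of genes with few reads. The difference between genotypes and the knockout to wild-type comparisons used 4 group means over the 12590 genes listed for both genotypes, the latter after scaling all 11 libraries by the median of ratios. Alternatives were edgeR 4.0.16 and DESeq2 1.42.0 on the recovered reads, other scalings, a smaller pseudocount, no filter, removal of the trend on gene length, a replicate block and each library left out. Leaving out libraries with over 10% rRNA-like reads was added after seeing the data. The fits were also run on simulated counts with planted log2 changes of 1 and 2. Of the changes of 1, 74% were recovered in the difference between genotypes and 97 to 100% in the other comparisons. Smaller changes, an outlying library and a trend on gene length were not simulated. Depth was 13683674 to 27347878 reads per library, and 3 reads, the limit a count of 0 allows, equal 0.0989 to 0.257 normalised read counts. That limit covers counting error only.

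All 8 subunits are named. Of the partner and client lists, genes that passed the test are named with a few abundant or extreme ones chosen after their values were seen, and the 5 genes of most similar pattern are named. The members and lists were chosen with earlier results of these data known. The marker lists of fibroblasts, adipocytes and leukocytes had 3 of 4, 1 of 3 and 1 of 3 genes listed for the wild type, at summed values of at most 58.5, 28.6 and 3.06. Pfdn6, Pdcl2, Cct6b and Cct8l1 were not tested.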

Additional observations from a re-analysis of the deposited data

How the results depend on the processing

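Of 672 pairs of a subunit result and an alternative, 606 kept direction and side of the threshold, 11 lost a call, 17 gained one in the same direction and 38 changed sign, of which 1 also gained a call (Cct8 in the wild type without polysomal replicate 2). The cause was not tested. The number of subunits called lower in knockout polysomal over total RNA was 5 with DESeq2 and 3 with the length trend removed. In knockout over wild-type polysomal RNA it was 0 with edgeR, quantile normalisation and TMM scaling, and 0 to 5 with single libraries left out. The fit without the libraries with over 10% rRNA-like reads left 1 knockout polysomal library, so its counts of called subunits are not given. In that fit Cct8 kept its direction, higher in knockout total RNA and lower in the difference. The number of subunits called lower in the difference was 0 to 1 with single libraries left out. The number higher in wild-type polysomes was 0 to 2 with single libraries left out. An arm left with 1 library was assumed to vary like the other groups.

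Changes of sign on the log2 scale were as follows. In the wild-type comparison Tcp1 stood at 0.018 with edgeR, 0.022 with DESeq2, 0.11 with the length trend removed and 0.10 with quantile normalisation, Cct8 at 0.0122 with edgeR and 0.0123 with DESeq2, and Cct5 at −0.049 with the length trend removed. With quantile normalisation Tcp1 stood at 0.066, Cct4 at 0.016 and Cct6a at 0.0056 in knockout polysomal over total RNA, Cct2 at 0.14 and Cct6a at 0.061 in the difference, and Tcp1 at 0.072, Cct2 at 0.21 and Cct4 at 0.075 in knockout over wild-type polysomal RNA. With the length trend removed Cct2 stood at 0.0015 and Cct6a at 0.19 in the difference, Cct2 at 0.054 in knockout over wild-type polysomal RNA, and Cct7 at −0.016 in total RNA. TMM scaling put Cct2 at 0.0059 in knockout over wild-type polysomal RNA. With single libraries left out, wild-type values ranged from −0.21 to 0.21 for Tcp1, −0.12 to 0.34 for Cct4, −0.094 to 0.26 for Cct5, −0.39 to 0.28 for Cct6a, −0.27 to 0.027 for Cct7 and −0.38 to 0.33 for Cct8. The difference for Cct6a ranged from −0.59 to 0.083, and Cct7 in knockout over wild-type total RNA from −0.11 to 0.28. In knockout over wild-type polysomal RNA the ranges were −0.33 to 0.033 for Tcp1, −0.28 to 0.14 for Cct2, −0.34 to 0.063 for Cct4 and −0.64 to 0.013 for Cct8.

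Counts over all genes moved more. Over the alternatives, wild-type polysomal over total RNA gave 83 to 2765 higher and 378 to 3012 lower genes (1101 and 1705 as reported), the knockout 2 to 862 and 3 to 798 (110 and 223), the difference 0 to 642 and 0 to 467 (28 and 5). Knockout over wild type gave 78 to 2316 higher and 182 to 2329 lower in total RNA (587 and 721) and 256 to 973 and 163 to 822 in polysomal RNA (601 and 436). The share of higher among called genes in the wild type was 39.2% as reported and 49.3% with DESeq2. With a replicate block, wild-type calls were 703 higher and 1243 lower, with 0 of 8 subunits called in either direction. Same-numbered wild-type libraries deviated together with correlations of 0.21, −0.22 and −0.07. With 3 libraries per fraction these values cannot show whether the numbers pair the samples. No paired analysis was possible for the knockout because its table columns carry no number of a sample title.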
